A study of Mus musculus with 16 samples.

Results

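Common dendritic progenitors (CDPs) of mice with little Ikaros were cultured with a γ-secretase inhibitor (GSI) or with its vehicle, and their transcriptomes were compared on 4 of the 16 Affymetrix Mouse Gene ST arrays of the study, chosen by their labels. The 4 arrays are IkL/L CDPs with DMSO (2 arrays) and IkL/L CDPs with GSI (2 arrays), and the comparison covered 19938 genes. IkL/L mice are homozygous for a hypomorphic *Ikzf1* allele, carried in every cell, and lack most Ikaros protein. CD45.2+ CDPs were sorted from the bone marrow (BM) of mice between 6 and 9 weeks old and kept for 24 h with unfractionated WT CD45.1+ BM cells in medium holding Flt3L, the cytokine that drives dendritic cell (DC) development. GSI, here Compound E at 5 µM, or DMSO was present throughout, and the CD45.2+ cells were then sorted again for RNA. The other 12 arrays hold the same treatments, 2 arrays each, of WT CDPs and of WT and IkL/L macrophage-dendritic progenitors (MDPs), an earlier stage. The legend of the study gives 2 mice per condition. Neither it nor the labels tie a replicate number to a mouse or day, so p values measure the spread between these arrays. CDP names the cells that entered culture, as the stage of the recovered cells was not measured on these arrays.

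γ-Secretase is a membrane protease built from a presenilin, nicastrin, APH1 and PEN2. It cuts the stubs of membrane proteins that have lost their outer domain. Its best known substrate is Notch, whose freed intracellular part joins RBPJ to switch on genes such as *Hes1*, but cadherins and several receptors are cut as well. Ikaros is a zinc finger DNA-binding protein of blood cells, and CDPs give rise to conventional DCs (cDCs) and to plasmacytoid DCs (pDCs).

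The values are log2 RMA signals, which run from 2.55 to 13.46 over the 16 arrays. Array medians lay between 4.58 and 4.62 in the 4 IkL/L CDP arrays and between 4.52 and 4.65 over all 16. The signal of *Ikzf1* was 8.62 and 8.94 with DMSO and 8.58 and 8.59 with GSI in IkL/L CDPs, below the lowest WT CDP array for all but 1 of them (8.91 and 8.95 with DMSO, 8.90 and 9.15 with GSI). The allele lowers Ikaros protein, so this transcript does not check the genotype. Of the progenitor markers, *Flt3*, the receptor for Flt3L, lay between 8.57 and 9.60 in the 4 arrays and *Csf1r*, the M-CSF receptor gene, between 10.39 and 10.88. The cDC genes *H2-Ab1* and *Cd74* were above 12 on the log2 scale in all 4 arrays, and the pDC marker *Siglech* lay between 6.96 and 7.66. The B cell gene *Cd79a* (3.65 to 4.05), the T cell gene *Cd3g* (3.12 to 3.5) and the erythroid factor *Klf1* (3.55 to 3.69) were below the array medians. Genes of other myeloid cells were not. The neutrophil genes *S100a8* and *Camp* lay between 12.49 and 12.74 and between 10.82 and 12.22, and *Mcpt8*, a basophil protease gene, between 7.90 and 9.84.

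The arrays with replicate number 1 held more of these genes than those with number 2 under both treatments. The mean signal of 19 late neutrophil genes was 9.39 and 8.47 in DMSO arrays 1 and 2, and 9.25 and 8.0 in GSI arrays 1 and 2. The 18 measured genes of basophils, mast cells and eosinophils gave 5.51 and 5.04 with DMSO and 5.23 and 4.74 with GSI. The lists of monocyte and macrophage genes, Toll-like receptors and interferon response genes were ordered by number in the same way. For mature DC genes, number 2 was the higher under both treatments (7.72 and 8.06 with DMSO, 7.92 and 8.25 with GSI). The Y-linked gene *Eif2s3y* lay between 6.05 and 6.73 and *Xist* between 7.42 and 8.75, so all 4 IkL/L CDP arrays carried both signals. Across genes, which are not independent replicates, arrays of 1 number correlated at r of 0.996 and 0.994, and replicate arrays of 1 treatment at 0.993 and 0.992.

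**Figure D1:**
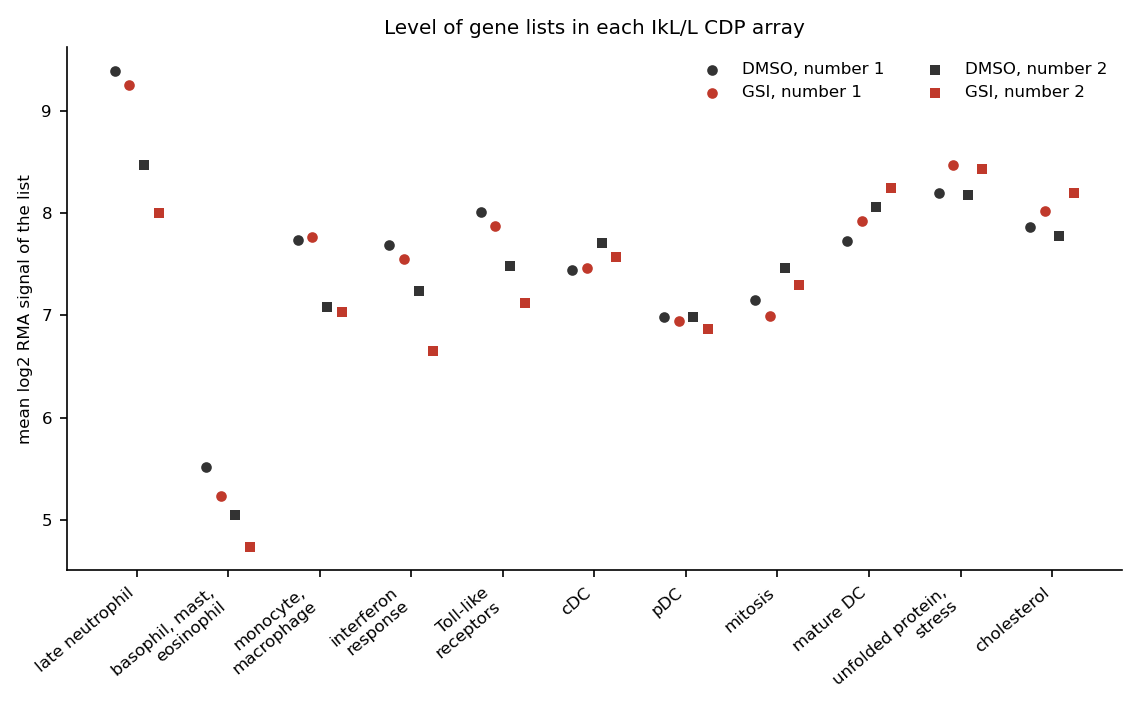
Mean log2 RMA signal of 11 gene lists in each of the 4 IkL/L CDP arrays, with DMSO in black, GSI in red, number 1 as circles and number 2 as squares. The late neutrophil list runs from 9.39 down to 8.0 and is ordered by number first, whereas the unfolded protein and cholesterol lists are higher in both GSI arrays than in both DMSO arrays.

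The first question was how many genes differed with GSI in IkL/L CDPs. At an adjusted p under 0.05 (limma), 1 gene of 19938 was higher with GSI, or 0.00502%, and 0 were lower. At an adjusted p under 0.1 there were 8 genes (0.0401%), all higher, and 697 genes (3.5%) had an unadjusted p under 0.05, of which 387 (1.94%) were higher and 310 (1.55%) lower. By the means alone, 126 genes (0.632%) were over 1.5-fold higher and 141 (0.707%) over 1.5-fold lower, and 44 (0.221%) and 25 (0.125%) passed 2-fold. The 267 genes over 1.5-fold in either direction (1.34%) were 702 without GSI array 1 and 555 without DMSO array 2, so this count depended on single arrays. Taken within each replicate number, 73 genes (0.366%) were over 1.5-fold higher in both and 70 (0.351%) lower in both, 143 in all (0.717%). Of these, 66 higher genes (0.331%) and 50 lower genes (0.251%) also had arrays that did not overlap between treatments. The log2 differences within number 1 and within number 2 correlated at r of 0.491 over all genes, which are not independent replicates.

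**Figure D2:**
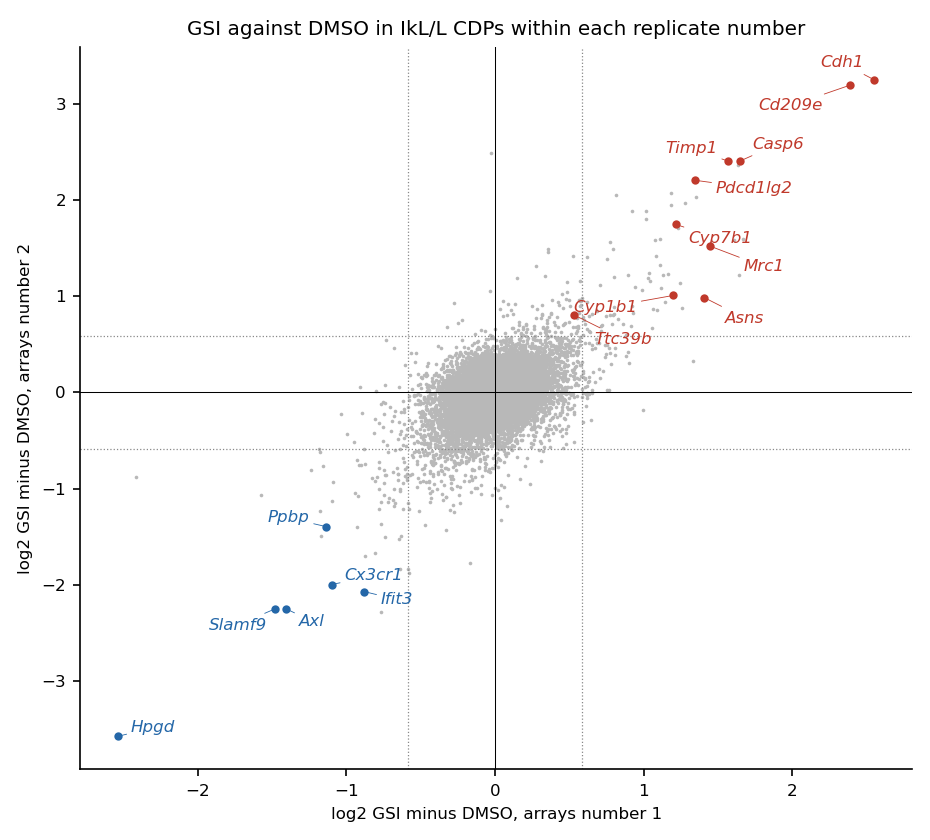
Log2 difference, GSI minus DMSO, of each of 19938 genes between the IkL/L CDP arrays with number 1 (horizontal axis) and with number 2 (vertical axis), with dotted lines at 1.5-fold. *Cdh1* and *Cd209e* lie farthest to the upper right and *Hpgd* farthest to the lower left, in both numbers.

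The gene that passed the test was *Cyp1b1*, which encodes a cytochrome P450 that oxidizes polycyclic compounds and steroids and is a classic target of the aryl hydrocarbon receptor (AhR). Its log2 signal was 3.61 and 3.55 in the DMSO arrays and 4.81 and 4.56 in the GSI arrays. WT CDPs, at 3.49 and 3.58 with DMSO and 3.59 and 3.57 with GSI, sat at the level of the DMSO arrays of IkL/L CDPs under both treatments. *Cyp1b1* rose 2.15-fold in IkL/L CDPs (log2 difference 1.10, standard error 0.10, 95% confidence interval 0.89 to 1.32, adjusted p = 0.0064 from limma). The probe set is dim, with a mean over the 4 IkL/L CDP arrays at the 37.4th percentile of genes. The call was lost without DMSO array 1 (adjusted p = 0.0572) or DMSO array 2 (0.0584) and in fits of the 8 CDP arrays (0.539) or the 4 IkL/L CDP arrays alone (0.744). In RNA from bulk cells, a change in the number of cells that express a gene and a change per cell cannot be told apart.

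AhR binds DNA with ARNT at a core of GCGTG. The 250 bases before the start of *Cyp1b1* (RefSeq, GRCm38.p6, chr17:79715062-79715311, minus strand) are shown because they belong to the called gene. The core, read on the other strand, is in capitals and begins 76 bases upstream of the start.
Cyp1b1: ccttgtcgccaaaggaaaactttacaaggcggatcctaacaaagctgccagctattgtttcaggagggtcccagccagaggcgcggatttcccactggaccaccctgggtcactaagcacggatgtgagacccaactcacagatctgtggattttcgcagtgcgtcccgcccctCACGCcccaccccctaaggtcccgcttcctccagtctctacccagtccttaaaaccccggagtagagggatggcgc
In windows from 250 bases before to 50 after the start, searched on both strands, 35.2% of 27025 RefSeq promoters hold GCGTG, as do 44.4% of those of genes tested here. Of 10 measured AhR genes 7 had a promoter in the table, and 5 of the 7 held it (*Ahrr*, *Arnt*, *Cyp1a1*, *Cyp1b1* and *Tiparp*). The core was as common in lists described below, so it does not mark AhR genes here. It was in 17 of 23 promoters of unfolded protein and stress response genes and 10 of 15 of cholesterol genes. Of the 66 genes higher within both numbers without overlap, 54 had a promoter and 46.3% of these held it. Of the 10 AhR genes 8 had a higher mean with GSI, against 53.5% of all genes. An unadjusted p under 0.05 was found for 4, against 3.5% of all genes, and *Cyp1b1* itself is among these 4. The median log2 difference was 0.11, against 0.01 over all genes. *Cyp1a1*, the most cited AhR target, differed by -0.03, and *Tiparp*, an ADP-ribosyltransferase gene of the same pathway, by 0.32.

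The other 7 genes at an adjusted p under 0.1 were also higher with GSI. *Pdcd1lg2* encodes PD-L2, a ligand of the inhibitory receptor PD-1 on DCs and macrophages. Its log2 signal was 4.06 and 3.85 with DMSO and 5.40 and 6.06 with GSI, 3.43-fold higher in the mean (log2 difference 1.78 with a standard error of 0.21, adjusted p = 0.0523 from limma). *Cd209e*, a mouse gene of the DC-SIGN family of C-type lectins, gave 5.25 and 5.35 with DMSO and 7.64 and 8.55 with GSI (6.93-fold, adjusted p = 0.0778). For both genes the lower GSI array stood above the higher DMSO array by more than the distance between the DMSO arrays. *Casp6*, an executioner caspase gene, was at 6.01 and 5.83 with DMSO and 7.66 and 8.24 with GSI (4.08-fold, adjusted p = 0.0778). *Timp1*, an inhibitor of matrix metalloproteinases, was at 4.77 and 4.97 with DMSO and 6.33 and 7.38 with GSI (3.97-fold, adjusted p = 0.0873). In both of these genes GSI array 2 was the highest of the 4.

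*Cdh1*, which encodes E-cadherin, had the highest log2 difference among genes higher with GSI, 2.90 (standard error 0.41, 95% confidence interval 1.99 to 3.82, adjusted p = 0.0873 from limma). Both of its DMSO arrays were at 6.16 and its GSI arrays were at 8.71 and 9.41, a 7.48-fold difference of the means. *Cyp7b1*, an oxysterol hydroxylase gene, was at 5.02 and 5.24 with DMSO and 6.23 and 6.98 with GSI (2.79-fold, adjusted p = 0.0873). *Ttc39b* was at 4.93 and 4.81 with DMSO and 5.46 and 5.61 with GSI (1.59-fold, adjusted p = 0.0952). With each of the 4 IkL/L CDP arrays left out in turn, the log2 difference of *Cdh1* ran from 2.55 to 3.25 and that of *Ttc39b* from 0.59 to 0.74. Under such omissions the highest adjusted p was 0.412 for *Pdcd1lg2*, *Cd209e*, *Timp1* and *Cyp7b1*, 0.520 for *Casp6*, 0.758 for *Cdh1* and 0.796 for *Ttc39b*. Further genes at low p were *Lmna*, the gene of lamins A and C (1.14, adjusted p = 0.114), *Aqp1*, a water channel gene (1.06, adjusted p = 0.133), and *Tspan8*, a tetraspanin gene (0.48, adjusted p = 0.105).

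**Figure D3:**
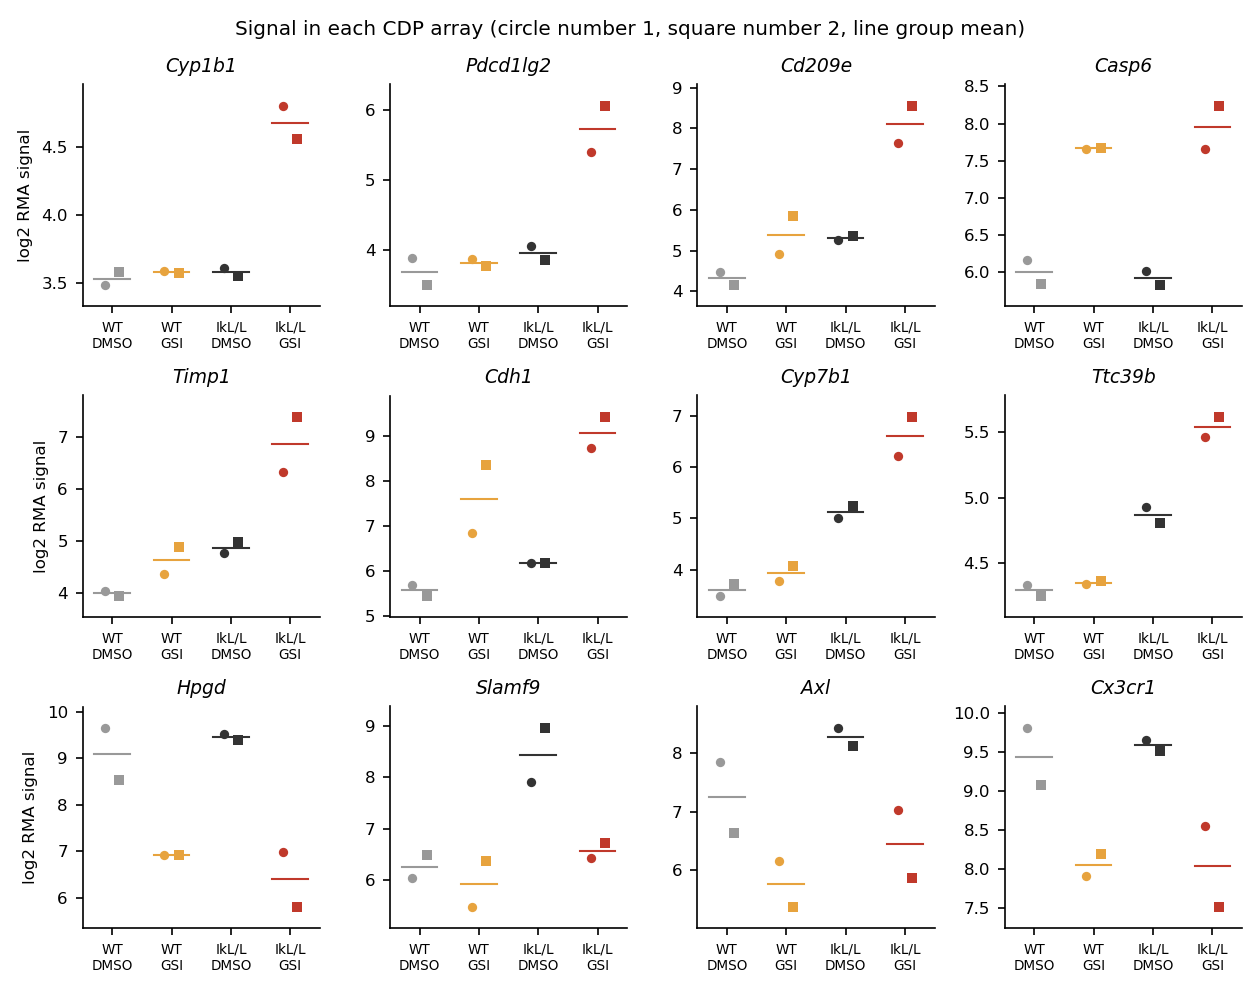
Log2 RMA signal of 12 genes in each CDP array, with WT and IkL/L cells under DMSO and GSI, number 1 as circles, number 2 as squares and lines at the group means. *Cyp1b1*, *Pdcd1lg2* and *Ttc39b* differ between treatments in IkL/L cells and stay within 0.13 on the log2 scale of each other in the WT group means, whereas *Casp6*, *Hpgd*, *Axl* and *Cx3cr1* move the same way in WT cells.

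Among genes lower with GSI, 0 had an adjusted p under 0.05, and the lowest adjusted p of those named was that of *Hpgd*. *Hpgd* encodes the dehydrogenase that inactivates prostaglandins. Its log2 signal was 9.52 and 9.39 with DMSO and 6.99 and 5.81 with GSI, an 8.32-fold lower mean (log2 difference -3.06, standard error 0.53, adjusted p = 0.208 from limma). *Slamf9*, a receptor gene of the SLAM family, was at 7.90 and 8.96 with DMSO and 6.43 and 6.71 with GSI (-1.86, adjusted p = 0.279). *Cx3cr1*, the fractalkine receptor gene of monocytes and DC progenitors, was at 9.65 and 9.51 with DMSO and 8.55 and 7.52 with GSI (-1.55, adjusted p = 0.331). The GSI arrays lay below both DMSO arrays in each of the 3 genes. *Ppbp*, a platelet chemokine gene, was at 5.48 and 6.15 with DMSO and 4.34 and 4.76 with GSI (-1.27, adjusted p = 0.293). *Dusp6*, a phosphatase of ERK, differed by -1.12 and *Cd72*, a lectin-like coreceptor of B cells and myeloid cells, by -1.24 (adjusted p = 1.00 and 0.554). *F11r*, the junctional adhesion molecule gene, was lower by a smaller amount (-0.79, adjusted p = 0.293), with DMSO arrays at 8.66 and 8.95 and GSI arrays at 7.93 and 8.09.

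The target of the drug and its best known pathway showed little difference. Of 7 listed γ-secretase subunit genes 6 were measured, with log2 differences from -0.25 (*Psen2*, presenilin 2) to 0.17 (*Aph1a*) and a median of -0.07. For *Psen2* the arrays were at 7.08 and 6.49 with DMSO and 6.71 and 6.36 with GSI, and *Ncstn*, nicastrin, was at 8.88 and 8.73 with DMSO and 8.88 and 8.58 with GSI. The treatments overlapped in each of the 6. Of 15 measured Notch target genes, 8 had a higher and 7 a lower mean with GSI, 0 were over 1.5-fold, 0 had an unadjusted p under 0.05 and the median was 0.00. *Hes1*, a repressor that Notch induces, was at 4.24 and 4.18 with DMSO and 4.13 and 4.12 with GSI (-0.08, 95% confidence interval -0.32 to 0.15), below the array medians in all 4. *Ptcra*, the pre-T cell receptor α gene, differed by 0.00 and *Uaca* by 0.21. *Ccnd1*, cyclin D1, had the lowest value of the list, -0.24, with arrays at 9.76 and 10.31 under DMSO and 9.45 and 10.15 under GSI. *Rbpj*, the DNA-binding partner of Notch, differed by -0.24 and *Maml2*, a coactivator of the complex, by 0.47 (unadjusted p = 0.192 and 0.0614 from limma).

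γ-Secretase substrates other than Notch had a median of 0.01 over 27 measured genes, of which 2 were over 1.5-fold higher and 1 over 1.5-fold lower, against 1.34% of all genes in either direction. An unadjusted p under 0.05 was found for 5, against 3.5%, and the arrays of 6 did not overlap on the higher and of 5 on the lower side, against 19.4% and 14.4%. The list nevertheless held extremes of both signs. *Cdh1* is described above. *Axl*, a receptor tyrosine kinase for GAS6 and also a TGFβ target that the study names, was at 8.43 and 8.12 with DMSO and 7.02 and 5.87 with GSI (log2 difference -1.83, standard error 0.44, adjusted p = 0.530 from limma). *Nrg1*, neuregulin 1, was at 6.27 and 6.02 with DMSO and 7.04 and 6.49 with GSI (0.62, adjusted p = 1.00).

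The TGFβ pathway was examined because the study follows it in these progenitors. TGFβ binds TGFBR2, which activates TGFBR1 and through it the SMAD proteins. Of 22 measured ligand, receptor and SMAD genes, 18 had a lower mean with GSI, against 46.5% of all genes, and 11 were lower within both numbers, against 26.6%. The arrays of 10 of them did not overlap on the lower side, against 14.4%, while the median difference was only -0.05. *Tgfbr2* was at 6.36 and 6.63 with DMSO and 5.94 and 5.76 with GSI (1.56-fold lower, log2 difference -0.64, standard error 0.12, adjusted p = 0.279 from limma). *Tgfbr1* was at 9.06 and 8.69 with DMSO and 8.57 and 8.23 with GSI (-0.47, adjusted p = 1.00). *Eng*, the coreceptor endoglin, was at 7.83 and 8.0 with DMSO and 7.42 and 7.51 with GSI (-0.45, adjusted p = 1.00). The 3 receptor genes were thus lower in both GSI arrays than in both DMSO arrays, although none passed the test. Of 20 measured TGFβ target genes 9 were higher and 11 lower, with a median of -0.05, from *Thbs1*, thrombospondin 1 (-0.83), to *Pmepa1*, a TGFβ feedback gene (0.43). *Itgb8*, the β subunit of an integrin that frees TGFβ from its latent form, was at 5.72 and 6.08 with DMSO and 5.10 and 5.40 with GSI (-0.65, adjusted p = 0.293).

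Of the 7 TGFβ targets with Ikaros binding that the study names, 3 had a higher and 4 a lower mean, with a median of -0.01. Apart from *Axl*, *Irf4*, a factor of cDC and plasma cell development, had the largest value, 0.63. Its arrays were at 6.97 and 7.71 with DMSO and 7.53 and 8.4 with GSI, so the treatments overlapped. *Nfkbie*, an inhibitor of NF-kB, was at 7.44 in both DMSO arrays and at 7.04 and 6.89 with GSI (-0.47). *Irf1*, *Nfkb2*, *Rel* and *Relb* lay between -0.21 and 0.14.

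Genes of macrophages and of lectin-bearing cDCs went both ways. *Mmp12*, macrophage elastase, was at 6.92 and 6.81 with DMSO and 8.56 and 9.17 with GSI (3.99-fold higher, adjusted p = 0.188 from limma). *Mrc1*, the mannose receptor gene, was at 7.15 and 7.64 with DMSO and 8.59 and 9.17 with GSI (2.80-fold higher, adjusted p = 0.523). The macrophage galactose lectin gene *Mgl2* was at 9.43 and 9.83 with DMSO and 10.37 and 10.92 with GSI (1.02, adjusted p = 1.00). *Cd209d*, of the same family as *Cd209e*, was at 9.06 and 9.53 with DMSO and 9.63 and 10.48 with GSI (0.76, adjusted p = 1.00). These lectin genes were higher in both GSI arrays than in both DMSO arrays. *C1qb*, of the complement C1q complex, was at 6.73 and 5.02 with DMSO and 7.81 and 6.43 with GSI, higher within each number while the treatments overlapped. Against these, *Cd14*, a coreceptor for bacterial lipopolysaccharide, was at 10.16 and 8.72 with DMSO and 9.06 and 7.59 with GSI (-1.11, adjusted p = 1.00). *Adgre4*, an adhesion receptor gene of monocytes, was at 10.36 and 9.71 with DMSO and 9.59 and 7.43 with GSI. Other C-type lectin genes, all from the cDC list, also split. *Clec9a* (-0.88), *Clec12a* (-0.88), *Clec4a4* (-0.85) and *Clec4a2* (-0.40) had lower means. *Ly75* (0.43), *Cd209a* (0.36) and *Clec10a* (0.24) had higher means. In the whole list of 27 measured monocyte and macrophage genes 10 were higher and 17 lower, where 46.5% of all genes were lower. Over 1.5-fold, 4 were higher and 5 lower, against 0.632% and 0.707% of all genes. The list median was -0.07.

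Genes of other kinds were also higher with GSI within both numbers. *F2r* and *F2rl2*, receptors of the thrombin family, were at 5.65 and 5.69, and at 7.19 and 7.27, with DMSO. With GSI they were at 6.84 and 7.64, and at 8.46 and 9.24. *Slc30a4*, a zinc transporter gene, was at 6.79 and 7.28 with DMSO and 8.45 and 8.87 with GSI (3.10-fold). *Tarm1*, an activating immune receptor gene, *Car5b*, a mitochondrial carbonic anhydrase gene, and *Septin3* differed by 1.6, 1.63 and 1.69 on the log2 scale. The adjusted p of these 6 genes lay between 0.480 and 1.00 (limma).

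Mature DC genes were split in sign, with more members over 1.5-fold higher than lower. Of 28 measured, 17 were higher, against 53.5% of all genes, and 11 lower. The arrays of 6 did not overlap on the higher side, against 19.4% of all genes. Over 1.5-fold, 5 were higher, against 0.632% of all genes, and 0 lower, against 0.707%. The median was 0.24. It was 0.00 without GSI array 2 and 0.02 without DMSO array 1. Beside *Pdcd1lg2*, its relative *Cd274*, which encodes PD-L1, was at 7.47 and 7.04 with DMSO and 8.18 and 7.68 with GSI (0.67, adjusted p = 1.00). *Socs2*, a suppressor of cytokine signaling, was at 6.05 and 7.09 with DMSO and 6.70 and 7.91 with GSI (0.74). *Ccr7* and *Fscn1*, which mark migrating DCs, differed by 0.24 each, and *Cd80*, a costimulatory ligand gene, by -0.55. In this list the order of the arrays by number, given above, was larger than the difference between treatments. The 33 cDC and 22 pDC genes had medians of -0.02 and -0.04. Of the cDC genes 2 were over 1.5-fold higher and 5 over 1.5-fold lower, against 0.632% and 0.707% of all genes. In the pDC list *Spib*, a transcription factor of pDCs, was at 7.53 and 8.49 with DMSO and 6.81 and 7.87 with GSI, and *Tcf4*, the factor that sets pDC identity, at 7.87 and 8.41 with DMSO and 8.30 and 8.81 with GSI. Both overlapped between treatments. *Irf8*, a factor DC progenitors depend on, was at 8.31 and 8.53 with DMSO and 7.95 and 7.71 with GSI (1.5-fold lower, adjusted p = 1.00), and *Nfil3*, a factor of cDC development, at 8.79 and 8.24 with DMSO and 9.28 and 9.20 with GSI (0.73, adjusted p = 0.884). Among 9 MHC class II genes, 4 were higher and 5 lower, and *H2-Oa*, which tempers peptide loading, differed most (-1.17). The stem and progenitor marker *Cd34* was at 9.18 and 9.64 with DMSO and 8.35 and 8.75 with GSI (-0.86, adjusted p = 1.00).

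Cholesterol synthesis and uptake genes had higher means throughout, with small differences. All 19 measured members had a higher mean with GSI, against 53.5% of all genes, 16 were higher within both numbers, against 31.3%, and 14 had arrays that did not overlap, against 19.4%. The median log2 difference was 0.27, with a range from 0.13 to 0.51. *Pmvk*, phosphomevalonate kinase, was at 6.67 and 6.62 with DMSO and 7.01 and 7.28 with GSI (0.51, adjusted p = 1.00 from limma). *Lss*, lanosterol synthase, was at 5.31 and 5.32 with DMSO and 5.68 and 5.91 with GSI. *Mvd*, mevalonate decarboxylase, was at 6.96 and 7.03 with DMSO and 7.43 and 7.46 with GSI. None of the 19 passed the test, 4 had an unadjusted p under 0.05 and 0 were over 1.5-fold. The median lay between 0.15 and 0.39 in all 10 settings in which it was recomputed. 

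Sterol-responsive genes are switched on by SREBP2, which binds the sterol regulatory element. *Hmgcs1*, the first committed enzyme gene of the mevalonate pathway, was at 8.59 and 8.67 with DMSO and 8.85 and 9.23 with GSI. Its upstream 250 bases (RefSeq, GRCm38.p6, chr13:119690101-119690350, plus strand) are shown as the promoter of the list in which the form of this element with TCAC and CCAC 1 base apart, searched on both strands, was found. The match, in capitals, begins 137 bases upstream of the start.
Hmgcs1: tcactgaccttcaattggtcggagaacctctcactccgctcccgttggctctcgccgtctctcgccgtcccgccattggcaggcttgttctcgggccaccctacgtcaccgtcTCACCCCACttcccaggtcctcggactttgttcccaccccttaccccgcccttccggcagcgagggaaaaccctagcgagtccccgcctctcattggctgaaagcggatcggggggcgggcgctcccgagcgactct
Of all promoters 1.44% hold this form, and 1 of 15 promoters of the list did.

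Most genes of the unfolded protein response and integrated stress response also had higher means. Of 24 measured, 18 had a higher mean with GSI, against 53.5% of all genes, and 15 had arrays that did not overlap on the higher side, against 19.4%. An unadjusted p under 0.05 was found for 9, against 3.5%. The median was 0.27 and lay between 0.21 and 0.31 in the settings tried. *Asns*, asparagine synthetase, which ATF4 induces when amino acids run short, was at 5.13 and 5.43 with DMSO and 6.54 and 6.42 with GSI (2.29-fold higher, adjusted p = 1.00 from limma). *Pdia6*, a protein disulfide isomerase gene of the endoplasmic reticulum (ER), was at 9.75 and 9.89 with DMSO and 10.39 and 10.53 with GSI (0.64). *Sdf2l1*, part of an ER chaperone complex, was at 8.43 in both DMSO arrays and at 8.97 and 9.11 with GSI (0.61). The 3 genes did not overlap between treatments. *Atf4* itself was at 8.62 and 8.45 with DMSO and 9.19 and 9.03 with GSI, and *Hspa5*, the ER chaperone BiP, at 11.13 and 11.21 with DMSO and 11.44 and 11.48 with GSI. The 6 lower members included *Ern1*, the ER stress sensor IRE1 (-0.24), and *Atf3* (-0.15). Outside the list, *Ssr3*, a subunit of the ER translocon, was at 9.70 and 9.62 with DMSO and 10.17 and 10.13 with GSI (0.49, standard error 0.08, adjusted p = 0.133).

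ER chaperone genes share the ER stress response element, CCAAT and CCACG with 9 bases between them. The 250 bases upstream of *Pdia6* (chr12:17266339-17266588) and *Hspa5* (chr2:34771840-34772089), both RefSeq, GRCm38.p6 and plus strand, are shown as 2 members that carry it. The element is in capitals and begins 98 and 65 bases upstream of the starts.
Pdia6: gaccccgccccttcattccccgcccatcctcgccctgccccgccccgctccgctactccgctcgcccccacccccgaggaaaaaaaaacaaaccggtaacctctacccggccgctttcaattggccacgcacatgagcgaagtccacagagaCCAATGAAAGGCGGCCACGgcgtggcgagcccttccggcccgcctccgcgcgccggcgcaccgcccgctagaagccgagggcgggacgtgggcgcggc
Hspa5: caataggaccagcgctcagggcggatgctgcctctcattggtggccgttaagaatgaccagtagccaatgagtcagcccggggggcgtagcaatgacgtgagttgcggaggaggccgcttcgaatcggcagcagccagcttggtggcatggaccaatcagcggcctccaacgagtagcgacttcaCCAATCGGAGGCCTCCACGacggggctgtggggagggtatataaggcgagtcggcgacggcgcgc
In the windows of 250 bases before and 50 after the start, this element was found on either strand in 0.137% of all promoters and in 6 of 23 promoters of the list (*Calr*, *Canx*, *Dnajc3*, *Hsp90b1*, *Hspa5* and *Pdia6*). These 6 genes differed by 0.15 to 0.64 on the log2 scale, all higher with GSI. The bases shown for *Pdia6* also hold GCGTG.

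Interferon response genes mostly had lower means. Of 25 measured, 20 had a lower mean with GSI, against 46.5% of all genes, 6 were over 1.5-fold lower, against 0.707%, and 6 had an unadjusted p under 0.05, against 3.5%. The median was -0.29, -0.09 within number 1 and -0.43 within number 2, and 0.04 without GSI array 2. *Ifit3*, which encodes an RNA-sensing effector of the interferon response, was at 9.08 and 7.72 with DMSO and 8.20 and 5.64 with GSI (2.78-fold lower, adjusted p = 1.00 from limma). *Ifit2* was at 7.45 and 6.81 with DMSO and 6.86 and 4.98 with GSI, and the chemokine gene *Cxcl10* at 6.93 and 5.76 with DMSO and 6.0 and 4.68 with GSI. The 3 genes were lower within each number, more so in number 2 for the *Ifit* genes, and DMSO array 2 lay below GSI array 1 in each. The 5 higher members, among them *Oasl1* and *Stat2*, reached 0.27 at most.

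These genes answer to the interferon-stimulated response element, whose core is GAAA 2 times with 2 bases between. The 250 bases upstream of *Ifit3* (RefSeq, GRCm38.p6, chr19:34583279-34583528, plus strand), the member with the largest difference, hold 2 copies on the other strand, in capitals, the farther one beginning 156 bases upstream of the start.
Ifit3: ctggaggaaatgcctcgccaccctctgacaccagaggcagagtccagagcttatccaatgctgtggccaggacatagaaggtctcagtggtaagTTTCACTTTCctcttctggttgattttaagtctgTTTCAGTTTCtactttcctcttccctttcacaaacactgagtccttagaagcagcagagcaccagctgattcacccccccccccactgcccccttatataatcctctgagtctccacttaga
The core was found on either strand in 3.99% of all promoters and in 12 of 21 promoters of the list.

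Genes of other myeloid cells had lower means alongside the interferon genes. All 19 measured late neutrophil genes had a lower mean with GSI, against 46.5% of all genes, and 16 were lower within both numbers, against 26.6%. Their median was -0.26, and 0 had an unadjusted p under 0.05, against 3.5% of all genes. *Ly6g*, the surface marker of neutrophils, was at 7.79 and 5.85 with DMSO and 7.07 and 4.75 with GSI, and *Ltf*, lactoferrin, at 11 and 10.20 with DMSO and 10.82 and 9.28 with GSI. The arrays of 0 of the 19 genes were free of overlap, against 14.4% of all genes on the lower side. The list median was -0.93 without GSI array 1, -0.74 without DMSO array 2, 0.12 without DMSO array 1 and 0.29 without GSI array 2, so its sign depended on which arrays were compared. For *Prg2*, eosinophil major basic protein, the arrays were at 9.08 and 8.39 with DMSO and 7.90 and 7.15 with GSI (-1.21, adjusted p = 1.00). *Prss34*, a basophil and mast cell protease gene, was at 10.29 and 8.92 with DMSO and 9.62 and 7.77 with GSI. Of 18 basophil, mast cell and eosinophil genes 5 were over 1.5-fold lower, against 0.707% of all genes. Of 15 Toll-like receptor genes and adaptors 10 had a lower mean, against 46.5% of all genes. Their median was -0.25. It was 0.05 without DMSO array 1 and 0.21 without GSI array 2, and -0.63 without GSI array 1 and -0.38 without DMSO array 2. *Tlr2* was at 10.18 and 9.16 with DMSO and 9.58 and 8.37 with GSI. The part of these cell types in the lower interferon and macrophage genes was not tested.

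Genes of cell division had slightly lower means. Of 29 measured mitosis genes 26 had a lower mean with GSI, against 46.5% of all genes, and 21 were lower within both numbers, against 26.6%. The median was -0.17, 0 were over 1.5-fold and 0 had an unadjusted p under 0.05. With 1 array left out the median was -0.02 without GSI array 1, -0.03 without DMSO array 2, -0.31 without DMSO array 1 and -0.34 without GSI array 2. *Kif23*, a kinesin of cytokinesis, was at 8.22 and 8.77 with DMSO and 7.74 and 8.24 with GSI, and *Nusap1*, a spindle protein gene, at 7.54 and 8.18 with DMSO and 7.18 and 7.58 with GSI. Each was lower within its number by about as much as the numbers differed. The 29 replication genes had a median of -0.08.

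**Figure D4:**
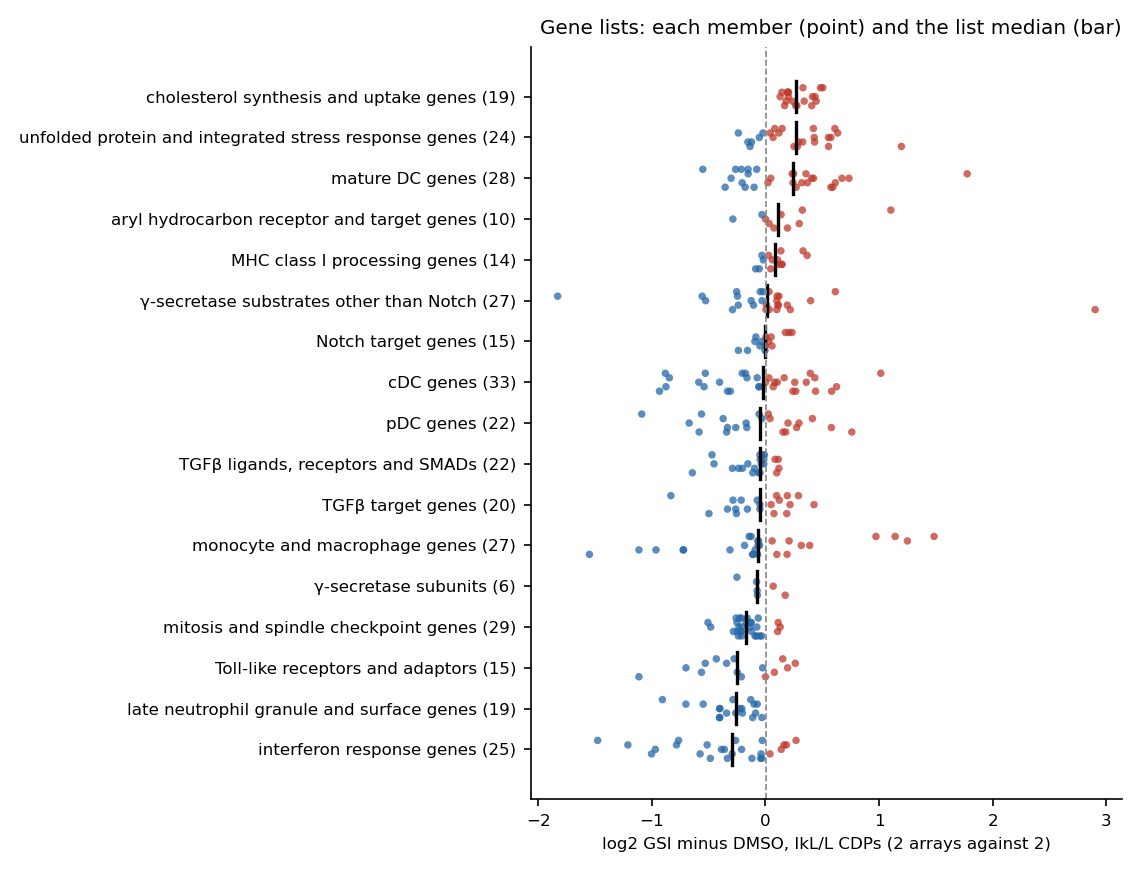
Log2 difference, GSI minus DMSO, of each measured member of 17 gene lists in IkL/L CDPs (red above 0, blue below), with a black bar at each list median, the number of members in brackets and a dashed line at the median of all genes. All 19 cholesterol genes lie above 0 and all 19 late neutrophil genes below it, while the Notch target genes cluster at 0.

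Stress-linked and early genes included single members with larger differences. *Ier3*, an immediate early gene that guards against cell death, was at 8.50 and 7.58 with DMSO and 9.52 and 9.48 with GSI (2.74-fold higher, adjusted p = 0.554 from limma). *Egr2*, a zinc finger gene, was at 7.52 and 6.95 with DMSO and 8.27 and 7.75 with GSI, and *Nr4a1*, an orphan nuclear receptor gene, at 6.05 and 5.31 with DMSO and 4.89 and 4.54 with GSI. The 3 genes did not overlap between treatments, but over 20 measured early genes the median was 0.00, with 10 higher and 10 lower.

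The same comparison in WT CDPs, which shares no array with that in IkL/L CDPs, asks whether these differences depended on the genotype. The test of the difference between the GSI effects in IkL/L and WT CDPs called 0 of 19938 genes by limma, and 286 (1.43%) had an unadjusted p under 0.05. Against IkL/L MDPs it also called 0, with 278 (1.39%) at an unadjusted p under 0.05. *Cyp1b1* differed by 0.05 in WT CDPs against 1.10 in IkL/L CDPs, a difference between the effects of 1.06 (standard error 0.14, adjusted p = 0.244 from limma). For *Pdcd1lg2* the difference between effects was 1.65 (standard error 0.29, adjusted p = 1.00), with WT CDP arrays at 3.88 and 3.5 under DMSO and 3.86 and 3.77 under GSI. *Aqp1*, *Tspan8* and *Ttc39b* had effects of -0.08, -0.02 and 0.06 in WT CDPs. *Slamf9* and *Ppbp* had effects of -0.34 and -0.18 there, against -1.86 and -1.27 in IkL/L CDPs, and their WT CDP arrays under DMSO were at 6.03 and 6.49, and at 3.69 and 3.35, already below those of IkL/L CDPs. None of these differences between genotypes passed the test.

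Other genes had effects of like size in WT CDPs. *Casp6* went from 6.16 and 5.83 with DMSO to 7.66 and 7.67 with GSI (1.67 on the log2 scale). *Cdh1* went from 5.68 and 5.44 to 6.85 and 8.34 (2.03), *Hpgd* from 9.65 and 8.53 to 6.92 and 6.93 (-2.16) and *Axl* from 7.85 and 6.64 to 6.17 and 5.38 (-1.47). The difference between the genotypes was 0.36 for *Casp6* (standard error 0.38), 0.87 for *Cdh1* (0.58), -0.89 for *Hpgd* (0.75) and -0.36 for *Axl* (0.63). In WT CDPs, 2 genes passed the test (0.01%), both higher with GSI, *Mrc1* and *Hfe*, a regulator of iron uptake (adjusted p = 0.0445 for each). *Mrc1* rose from 4.6 and 4.91 to 8.13 and 7.55 in WT CDPs, a log2 difference of 3.09 against 1.48 in IkL/L CDPs, where the DMSO arrays were higher. *Hfe* differed by 1.15 in WT and by 0.79 in IkL/L CDPs (adjusted p = 0.171 in the latter). At an unadjusted p under 0.05 there were 818 genes (4.1%) in WT CDPs, 1350 (6.77%) in WT MDPs, where limma called 0, and 522 (2.62%) in IkL/L MDPs, where it also called 0. Over 1.5-fold, WT CDPs had 102 genes higher (0.512%) and 306 lower (1.53%), WT MDPs 114 (0.572%) and 268 (1.34%), and IkL/L MDPs 68 (0.341%) and 117 (0.587%). Lower genes thus outnumbered higher ones in the 3 other populations by more than in IkL/L CDPs, a difference that was not tested.

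Of the 66 genes that were higher within both numbers in IkL/L CDPs without overlap, 62 had a higher mean with GSI in WT CDPs too, and 36 were over 1.5-fold higher there. Of all 19938 genes, 10460 had a higher mean with GSI in WT CDPs, and 0.512% were over 1.5-fold higher. Of the 50 lower genes, 49 had a lower mean in WT CDPs and 30 were over 1.5-fold lower, against 1.53% of all genes. In WT MDPs 47 of the 66 and 43 of the 50 kept their sign, and in IkL/L MDPs 49 and 45. The median effect of the 66 was 1.06 in IkL/L CDPs, 0.64 in WT CDPs, 0.17 in WT MDPs and 0.21 in IkL/L MDPs. That of the 50 was -0.91, -0.67, -0.40 and -0.42, and that of all genes 0.01, 0.01, 0.02 and 0.01. The 66 and 50 genes were chosen for large effects in IkL/L CDPs, so the larger values there are part of the choice. *Cd209e*, *Mmp12*, *Timp1* and *F2rl2* lay between -0.13 and 0.26 in both MDP populations, while *Ier3* differed by 1.46 and 0.93 in WT and IkL/L MDPs and *Cx3cr1* by -1.62 and -0.79.

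The lists compared with WT CDPs as follows. The unfolded protein and stress list had medians of 0.28 in WT CDPs, 0.30 in WT MDPs and 0.17 in IkL/L MDPs, near the 0.27 of IkL/L CDPs. The interferon list had medians of -0.49, -0.24 and -0.07 in the same order. For the TGFβ ligand, receptor and SMAD list they were -0.08, -0.13 and -0.04, beside -0.05 in IkL/L CDPs, and 8 of its 22 members were higher in WT CDPs. The cholesterol list had a median of -0.06 in WT CDPs, where 3 of 19 members were higher, and of 0.16 and 0.15 in WT and IkL/L MDPs. The mitosis list had a median of 0.36 in WT CDPs, where 28 of its 29 members were higher with GSI, against -0.17 in IkL/L CDPs. The mature DC median was -0.01 in WT CDPs. The differences between these medians were not tested, since no list was tested as a set.

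**Figure D5:**
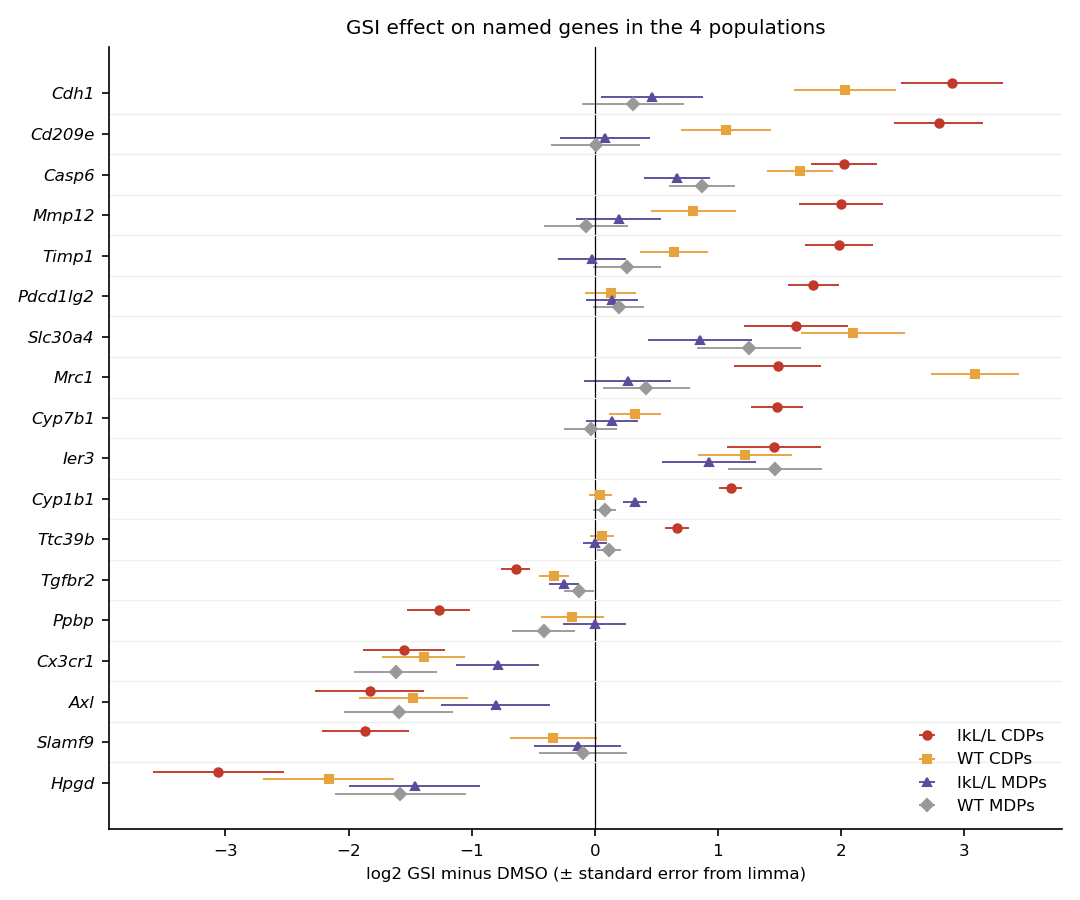
Log2 difference, GSI minus DMSO, of 18 genes in IkL/L CDPs (red circles), WT CDPs (orange squares), IkL/L MDPs (violet triangles) and WT MDPs (grey diamonds), each from 2 arrays against 2, with bars of 1 standard error from limma. *Cyp1b1*, *Ttc39b* and *Pdcd1lg2* lie near 0 in the 3 other populations except for *Cyp1b1* in IkL/L MDPs (0.33), whereas *Hpgd*, *Axl*, *Cx3cr1* and *Ier3* lie on 1 side of 0 in all 4.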

How the data were processed

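RNA of the re-sorted CD45.2+ cells was amplified with a whole-transcriptome kit from small amounts and hybridised to Affymetrix Mouse Gene ST arrays. The authors deposited log2 signals per probe set, made by RMA in Expression Console 1.4.1 per the submitters' processing notes. RMA brings the arrays to a common distribution of intensities and compresses differences at low signal. No counts or read depth exist for arrays, and their number limits the precision.

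Of 28188 probe sets, 21789 had 1 symbol, 1621 several and 4778 none, and each of 19938 symbols was represented by its brightest probe set, by the mean of the 16 arrays. One limma 3.58.1 fit (R 4.3.3) of 8 groups with 2 arrays each gave every contrast, with 8 residual degrees of freedom and Benjamini-Hochberg adjustment over all genes. It was tested on simulated data. Exact permutation of 2 against 2 arrays was not used, since its smallest two-sided p is 0.333. The members and lists were chosen with earlier results of these data known. Genes were named where they led by size or by p among rises and falls, led their list, or are named in the study. Members outside this rule (*Atf3*, *Atf4*, *Canx*, *Ccr7*, *Cd80*, *Cd209a*, *Clec10a*, *Clec12a*, *Clec4a2*, *Clec4a4*, *Cyp1a1*, *Dnajc3*, *Ern1*, *Fscn1*, *Hfe*, *Hmgcs1*, *Hsp90b1*, *Hspa5*, *Ly75*, *Oasl1*, *Stat2*, *Tiparp*, *Ahrr* and *Arnt*) were chosen after their values were seen. Predicted genes, receptors of smell, small nucleolar RNAs and immunoglobulin segments were counted but not named. Promoters are those of RefSeq, GRCm38.p6, matched by symbol. Alternatives covered the replicate block, the arrays in the fit, normalization, the filter on dim genes, the prior, array weights, the threshold and each array left out.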

Additional observations from a re-analysis of the deposited data

How the results depend on the processing

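The number of genes called in IkL/L CDPs depended on the fit. It was 1 as reported, 0 with the 8 CDP arrays or the 4 IkL/L CDP arrays alone, 3 among genes above the median signal, 12 with a trended robust prior, 11 with array weights, 0 tested against 1.5-fold and 8 at an adjusted p under 0.1. With each array left out in turn it ran from 0 (without IkL/L CDP DMSO array 1) to 18 (without IkL/L CDP GSI array 1, 17 higher and 1 lower). It was 2, both lower, without DMSO array 2, and 3 without GSI array 2. It was 3 without either WT CDP DMSO array, 6 without either WT CDP GSI array and 4 without either IkL/L MDP DMSO array. It was also 1 without the 4 IkL/L MDP arrays, an alternative chosen after seeing the data. The 267 genes over 1.5-fold were 69 over 2-fold, and 299 to 702 with 1 array left out. The difference from WT CDPs called 1 gene with the trended robust prior, and 0 to 6 genes with 1 array left out. That from IkL/L MDPs also called 0 to 6, in both cases 6 without IkL/L CDP GSI array 1. In the 3 other populations the 2 calls were 1 after quantile normalization, 0 after median centring, 1 with the trended robust prior, 0 with array weights, 0 against 1.5-fold and 0 to 59 with 1 array left out (59 without WT MDP GSI array 2). The causes were not tested.

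Same-numbered arrays deviated together in IkL/L CDPs (r of 0.658), WT CDPs (0.585) and WT MDPs (0.476) but not in IkL/L MDPs (-0.020), so the numbers were not taken to pair the samples. With the replicate number as a block within each population, 26 genes were called in IkL/L CDPs, 17 higher and 9 lower, and 15 in the 3 others. Among the 9 were *Hpgd* and *Axl* (adjusted p = 0.0443 for each, limma), *Slamf9* and *Ppbp* (0.0462 for each) and *Itgb8* (0.0475). With a block common to all populations there were 6 and 5. Within both numbers, 143 genes were over 1.5-fold. *Cyp1b1* was called under the block (adjusted p = 0.0396), and its adjusted p ran from 1.78e-04 to 0.744 over all alternatives.

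Of 4632 values of the 173 genes under the named-gene rule, 4 lost a call, all of *Cyp1b1*, 64 gained one and 85 uncalled values took the other sign. Of 370 list medians 165 moved by more than the spread between replicate numbers, and 25 of 37 lists changed sign at least once.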

Other observations

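Other lists gave values not described above. Of 20 T and NK cell genes 13 had a higher mean with GSI, against 53.5% of all genes, and 8 had arrays that did not overlap on the higher side, against 19.4%, with a median log2 difference of 0.07. Of 24 cytokine receptor genes 18 had a lower mean, against 46.5% of all genes, with a median of -0.12. *Il17ra*, the receptor gene of interleukin 17, was the lowest of them (-0.62). Of 14 MHC class I processing genes 10 had a higher mean, with a median of 0.08. Of 11 azurophil granule genes, made early in granulocyte development, 5 were higher and 6 lower with a median of -0.17, and *Mpo*, myeloperoxidase, was the lowest of them (-0.90). Of 11 sterol efflux genes 7 were higher and 4 lower, from *Nr1h3*, the liver X receptor α gene (-0.75), to *Scd2*, a fatty acid desaturase gene (0.76). The 19 NF-kB genes had a median of -0.01, the 30 inflammatory genes -0.10, the 15 heat and oxidative stress genes 0.01, the 16 p53 and apoptosis genes -0.05 and the 28 lysosomal genes -0.05. *Bcl2l11*, which encodes the death-promoting protein BIM, differed by 0.60.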
